A study of Mus musculus with 20 samples.

Results

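The desmosome genes were followed through PyMT mouse breast tumors and through cell lines grown from such tumors. The set was given by name and holds 10 of the 45706 genes counted: Dsp, Dsg2, Dsc2, Dsc3, Pkp1, Pkp2, Pkp3, Pkp4, Jup and Ppl. All 10 were found in the count tables, and 188 reads over 8 tumors and 7 over 12 cell libraries made Dsc3 the least abundant of them. Every mouse carried MMTV-PyMT, a viral oncogene driven in mammary epithelium. In the 4 MMTV-cre;Ctsd-/- tumors a Cre recombinase under the same promoter had removed floxed Ctsd, the gene of the lysosomal protease cathepsin D, from mammary epithelium, so that stromal cells kept the gene. The 4 control tumors were CTSD-competent, with untargeted or floxed alleles, and all tumors were taken at 18 weeks of age from mice on a C57BL/6N background. The cells were spontaneously immortalized tumor cells, the Ctsd+/+ line from 1 mouse and the Ctsd-/- line from 1 MMTV-cre;Ctsd-/- PyMT mouse. Each line was kept in 1% fetal calf serum (FCS), a serum starvation, for either 10 days, the group named 1% FCS, or for 12 weeks, named 1% FCS LT, with 3 libraries in each of the 4 groups. With 1 line per genotype, a difference of genotype and a difference between lines cannot be told apart.

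Desmosomes are spot-like junctions that fasten the intermediate filaments of neighbouring epithelial cells to each other. Desmogleins and desmocollins, such as Dsg2, Dsc2 and Dsc3, are cadherins that span the membrane and bind the next cell. Inside the cell, the armadillo proteins plakoglobin (Jup) and the plakophilins (Pkp1, Pkp2 and Pkp3) hold the cadherin tails, and desmoplakin (Dsp) ties this plaque to keratin filaments. Periplakin (Ppl) is another plakin of epithelial cells, and Pkp4, a relative of p120-catenin, is also found at adherens junctions. In the mammary gland, desmosomes join luminal cells to each other and to the myoepithelial layer. They are commonly lost in epithelial-mesenchymal transition (EMT).

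Ctsd itself followed the labels in the cells, with 1267 to 4199 CPM (counts scaled to a common library size) in the 6 Ctsd+/+ libraries and 114 to 192 CPM in the 6 Ctsd-/- libraries. In the tumors it ranged from 1781 to 2617 CPM in controls and from 360.2 to 1295 CPM in MMTV-cre;Ctsd-/- tumors. The depth was 49725437 to 64291587 gene counts per tumor library and 33622831 to 40239762 per cell library, so that each member other than Dsc3 rested on at least 121 reads in every library. The 7 luminal epithelial markers summed to 4474 to 7632 CPM in tumors, and they were much lower in the 1% FCS Ctsd+/+ cells (921 to 1737 CPM) than in the other 9 cell libraries (4655 CPM or more). The same 3 libraries held mesenchymal RNA. Their 6 fibroblast markers summed to 626 to 2616 CPM, against 3.03 to 14.9 CPM in the other cell libraries, and Vim, the filament gene of mesenchymal cells, stood at 2750, 2967 and 3481 CPM. Most of the fibroblast sum in these libraries was Col1a1, at 531, 2320 and 1460 CPM. Col1a2 stood at 0.51 to 3.69 CPM and Lum at 0 in all 3. Vim was also raised in replicates 1 and 2 of the 1% FCS LT Ctsd-/- cells (810 and 506 CPM) and less so in replicate 3 (38.1 CPM). Among the tumors, control tumor 4 and MMTV-cre;Ctsd-/- tumor 1 had the highest sums of 5 skeletal muscle markers, 966 and 237 CPM, against 3.60 to 63.5 CPM in the other 6.

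Dsp lies on chromosome 13 (38151294 to 38198577, plus strand, GRCm38), Pkp4 on chromosome 2 (59160850 to 59355208, plus strand) and Jup on chromosome 11 (100368958 to 100397763, minus strand). Pkp1 lies on chromosome 1 (135871395 to 135919207, minus strand), Pkp2 on chromosome 16 (16213318 to 16272712, plus strand), Ppl on the same chromosome (5086291 to 5132421, minus strand) and Pkp3 on chromosome 7 (141078218 to 141090510, plus strand). An antisense gene, Gm16090, shares 330 of the 8268 exon bases of Dsg2, and Gm10129, on the strand opposite to Dsp, shares 499 of its 9659. In cells, where counting kept strands apart, 99.9% or more of the reads of each member other than Dsc3 lay on the strand that the library type gives, the strand opposite to these partners.

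RefSeq promoter windows (GRCm38.p6) were at hand for 3 members, Dsp, Jup and Pkp4. They are shown because Dsp and Jup fell in the corrected comparison of the cells (described after the groups), whereas Pkp4 rose. Each line gives the 250 bases before the transcription start, 5′ to 3′ on the strand of the gene, with matches to the searched motifs in capitals.
Dsp, chr13:38151044-38151293, plus strand: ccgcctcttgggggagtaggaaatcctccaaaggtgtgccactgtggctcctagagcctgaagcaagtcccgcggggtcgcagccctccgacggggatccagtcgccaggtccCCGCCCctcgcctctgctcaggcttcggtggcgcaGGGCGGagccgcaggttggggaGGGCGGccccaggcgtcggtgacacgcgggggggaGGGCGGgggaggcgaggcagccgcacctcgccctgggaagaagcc
Jup, chr11:100397791-100398040, minus strand: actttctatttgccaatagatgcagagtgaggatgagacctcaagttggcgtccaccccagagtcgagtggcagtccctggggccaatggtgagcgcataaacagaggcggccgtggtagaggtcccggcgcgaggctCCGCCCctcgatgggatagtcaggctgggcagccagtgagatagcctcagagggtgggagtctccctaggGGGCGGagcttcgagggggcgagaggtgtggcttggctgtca
Pkp4, chr2:59160600-59160849, plus strand: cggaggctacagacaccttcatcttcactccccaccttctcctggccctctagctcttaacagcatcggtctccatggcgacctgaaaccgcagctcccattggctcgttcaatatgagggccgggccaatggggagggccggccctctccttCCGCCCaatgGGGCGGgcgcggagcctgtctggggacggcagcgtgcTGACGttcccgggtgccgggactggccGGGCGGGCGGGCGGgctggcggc
Pkp4, later start, chr2:59161619-59161868, plus strand: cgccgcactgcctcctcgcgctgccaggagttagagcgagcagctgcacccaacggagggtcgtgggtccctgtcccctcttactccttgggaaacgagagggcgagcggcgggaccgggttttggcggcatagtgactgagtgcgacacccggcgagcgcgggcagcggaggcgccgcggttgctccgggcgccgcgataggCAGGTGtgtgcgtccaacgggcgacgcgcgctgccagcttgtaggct
The motifs were searched on both strands and were the GC box GGGCGG, the E-box CAGGTG to which ZEB and SNAI factors bind, TGACG, a core of the CREB site, and AACCNGTT, a form of the site of grainyhead-like factors. The GC box occurred 4 times before Dsp, 2 times before Jup and 5 times before the earlier start of Pkp4, where the 3 copies nearest the start overlap by 2 bases each. It is found in 32.7% of all 32851 windows of this length. The E-box was found only in the window of the later Pkp4 start (17.2% of all windows hold it), TGACG only in that of the earlier Pkp4 start (17.8%), and AACCNGTT in none of the 4 windows (1.79% of all). The 4 windows were 62.0% to 72.4% G and C, against a median of 52.4% over all windows.

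To compare genes with each other, CPM was divided by the exon length of the gene in kilobases (kb). In both tumor groups Jup came first, with 46.1 ± 18.6 CPM per kb (SD, n = 4) in controls and 50.9 ± 10.8 (SD, n = 4) in MMTV-cre;Ctsd-/- tumors. Pkp3 followed with 30.8 ± 2.76 and 37.0 ± 6.44 CPM per kb, and its range overlapped with that of Jup in both groups. Pkp4, Dsc2, Dsg2, Dsp, Pkp2, Ppl and Pkp1 had mean levels between 2.30 and 12.1 CPM per kb, with many overlaps between neighbours. In the cells, Jup led 3 of the 4 groups, with means of 62.7 to 88.4 CPM per kb, and in 1% FCS LT Ctsd-/- cells Pkp1 (69.4 ± 4.33, SD, n = 3) stood above Jup (62.4 ± 3.66, SD, n = 3) without overlap of the ranges. The desmosomal cadherins were the least abundant members of every cell group. Dsc3 had no read in the 6 libraries in 1% FCS and 0 to 2 reads per library in 1% FCS LT. Up to 3 reads, which is 0.0718 to 0.0916 CPM in the cell libraries, are allowed by a count of 0, and no cell library held more reads of Dsc3 than that. It was removed with the low genes in the cells and was not tested there.

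**Figure D1:**
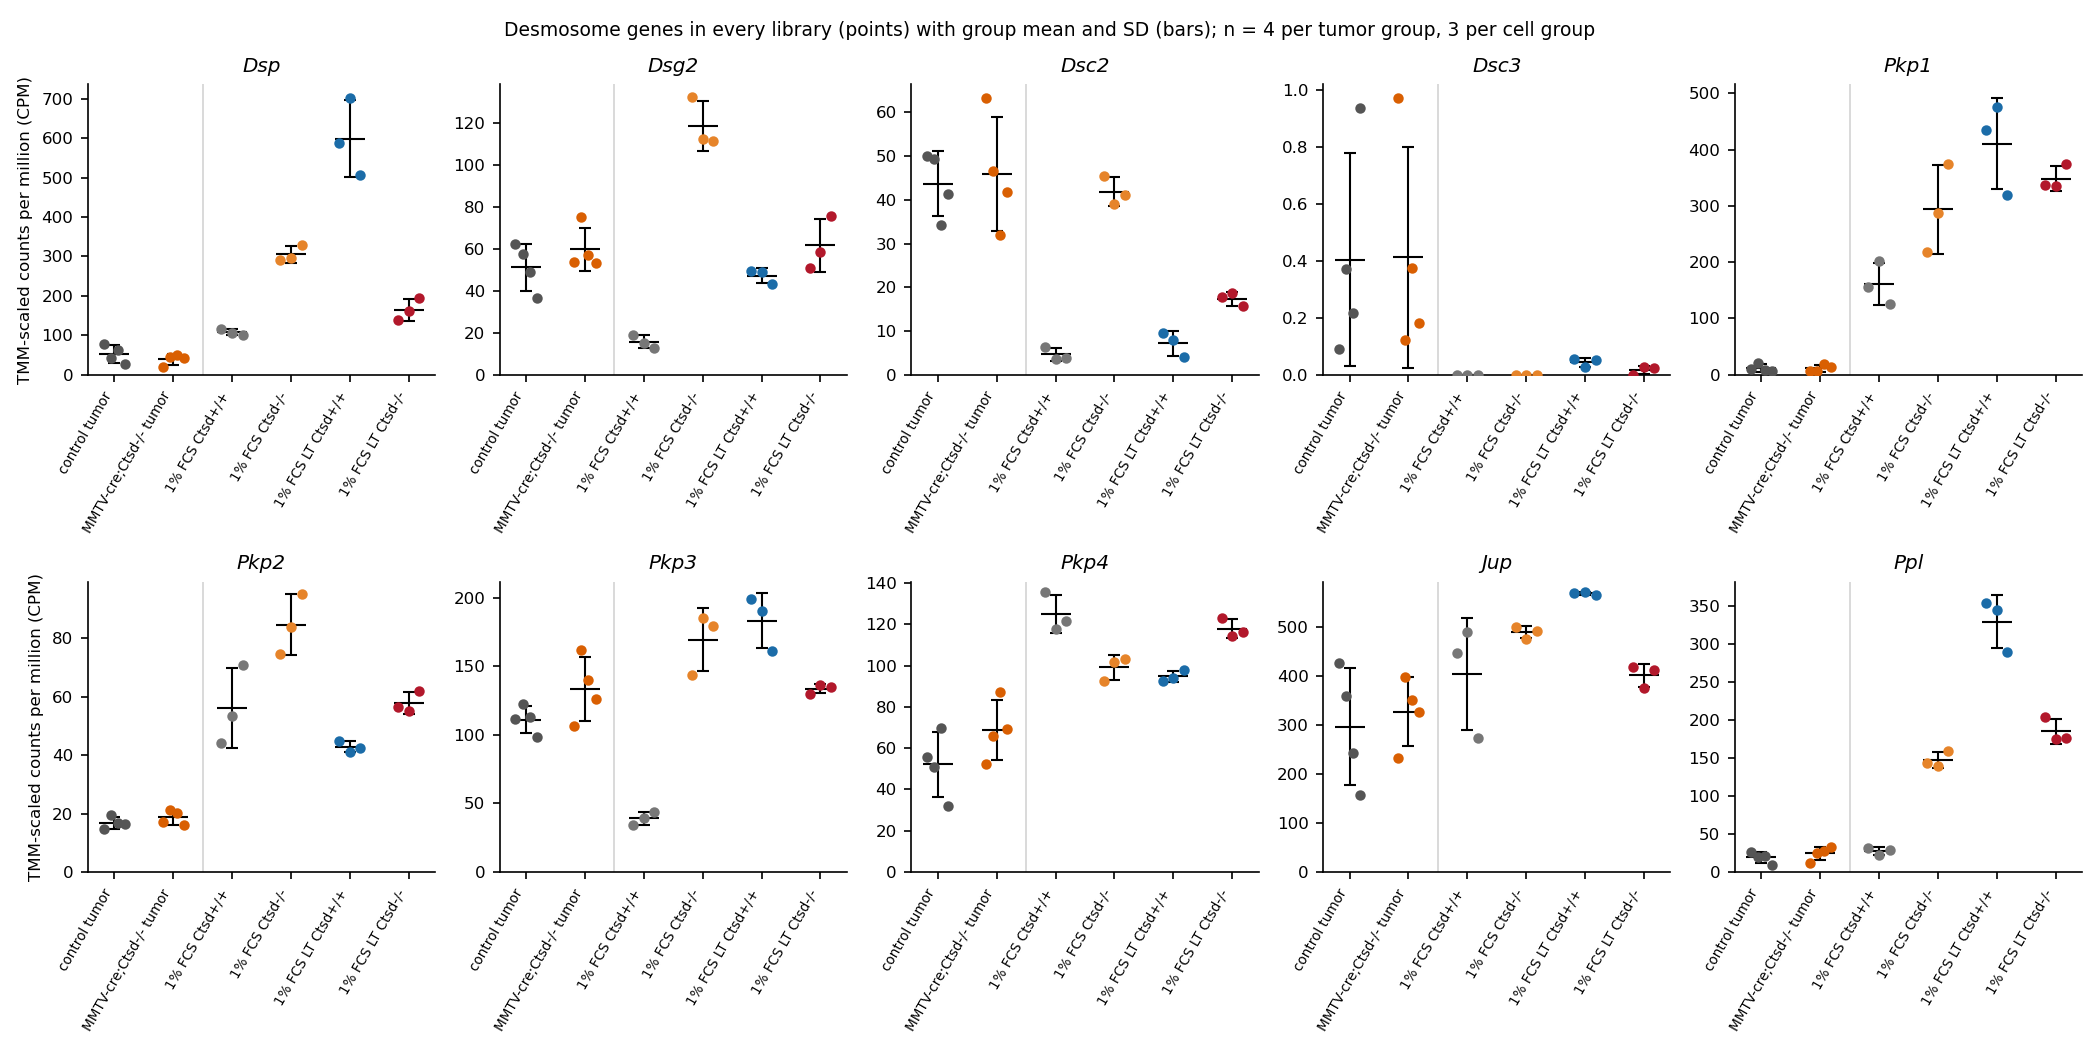
Levels of the 10 desmosome genes in CPM (y axis, linear, from 0) in each of the 20 libraries (points), with the mean and SD of each group (black bars). Both tumor groups overlap for every gene, whereas Dsp ranges from 102 CPM in 1% FCS Ctsd+/+ cells to 702 CPM in 1% FCS LT Ctsd+/+ cells.

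The makeup of the plakophilins differed between tumors and cells. Pkp3 made up 62.9% to 73.1% of the plakophilin transcripts per kb in the 8 tumors and 13.1% to 36.1% in the 12 cell libraries. Pkp1, a plakophilin of stratified epithelia, made up 1.92% to 8.46% in tumors and 35.1% to 55.3% in cells. These ranges did not overlap for either gene. A ratio within a library does not depend on scaling, and by it Pkp1 stood at 0.0679 (control) and 0.0564 (MMTV-cre;Ctsd-/-) of Pkp3 in tumors and at 1.225 to 2.91 of Pkp3 in the 4 cell groups. Tumors hold stroma and were counted without regard to strand, cells grew in culture and were counted by strand, so nothing was tested between the materials.

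**Figure D2:**
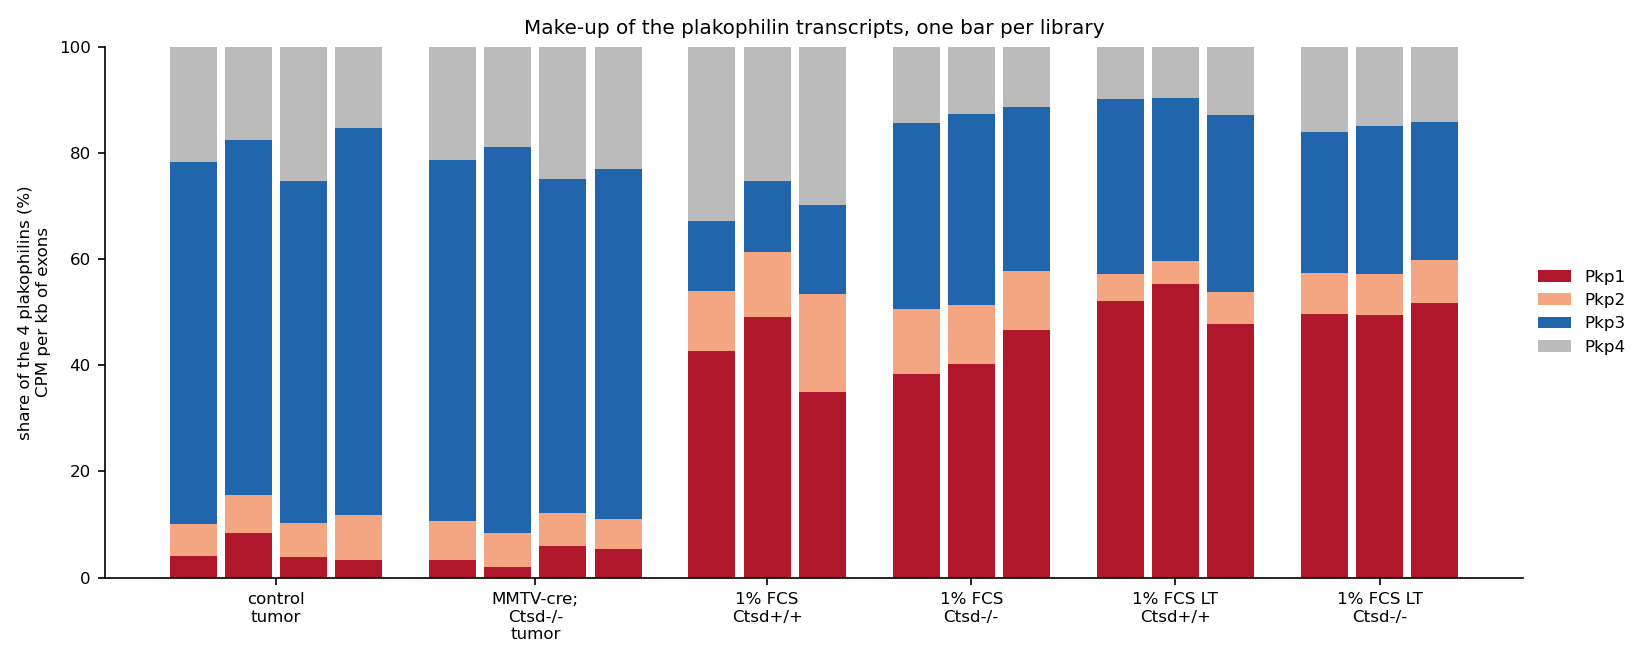
Share of each plakophilin in the summed CPM per kb of Pkp1, Pkp2, Pkp3 and Pkp4 (y axis, percent), with 1 bar per library, grouped as labelled. Pkp3 fills 62.9% or more of every tumor bar and 36.1% or less of every cell bar.

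Whether loss of CTSD in mammary epithelium altered these genes in tumors was asked by comparing 4 MMTV-cre;Ctsd-/- with 4 control tumors. None of the 10 members passed an adjusted p of 0.05 (edgeR's quasi-likelihood test, which called 1 gene, or 0.00537% of 18617), and none had an uncorrected p under 0.1, the threshold used by the study in tumors, which 16.7% of all genes passed. None was under 0.05 either, and DESeq2 and limma-voom also called 0 members. For every member the groups overlapped, where 2.26% of all genes were higher and 1.89% lower without overlap. In bulk tissue, fewer cells of a type and less RNA per cell cannot be told apart. The median log2 fold change (FC) of the members was 0.15, beside 0.00073 over all genes.

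Dsp was the member with the largest fall in tumors, and it was not called. It stood at 77.1, 41.5, 63.3 and 26.8 CPM in controls and at 18.4, 44.5, 49.2 and 43.5 CPM in MMTV-cre;Ctsd-/- tumors. Only MMTV-cre;Ctsd-/- tumor 1 lay below all controls. The log2 FC was -0.42, with a 95% interval from -1.26 to 0.41 (adjusted p = 0.715, edgeR). Ppl, the other plakin among the members, stood at 26.5, 19.9, 21.5 and 9.44 CPM in controls and at 12.4, 24.5, 28.1 and 32.6 CPM in MMTV-cre;Ctsd-/- tumors (log2 FC 0.34, interval -0.46 to 1.13, adjusted p = 0.755). The other 8 members had log2 FC between -0.012 (Pkp1) and 0.40 (Pkp4), with adjusted p of 0.635 or more. The narrowest interval was that of Pkp3 (-0.15 to 0.69 on the log2 scale).

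The ratio of Ppl to Dsp within a tumor did not overlap between the groups. On the log2 scale and per kb it was -1.06, -0.58, -1.08 and -1.02 in controls and -0.080, -0.37, -0.32 and 0.071 in MMTV-cre;Ctsd-/- tumors. The means were -0.93 ± 0.24 and -0.18 ± 0.21 (SD, n = 4 each). The two-sided exact permutation p was 0.0286, the smallest that 4 against 4 tumors can give, and 0.143 after adjustment over the 5 ratios examined, so the difference did not pass the correction. The LR code in the labels was shared by all control tumors and differed from the code shared by all MMTV-cre;Ctsd-/- tumors, so that genotype and LR code cannot be told apart in any tumor comparison. The ratio of Dsp to Jup overlapped (exact permutation p = 0.0857, adjusted p = 0.214), as did the other 3 ratios. Markers of some cell types leaned higher in MMTV-cre;Ctsd-/- tumors, but none was called after adjustment over all genes. The adipocyte and endothelial sums overlapped between the groups. An uncorrected p under 0.1, the threshold used for these markers, was passed by 16.7% of all genes in either direction. All 7 adipocyte markers were higher in MMTV-cre;Ctsd-/- tumors at an uncorrected p under 0.1, with sums of 623 to 6258 CPM against 90.8 to 765 CPM, and 4 of 5 endothelial markers were higher at that threshold, with sums of 75.7 to 340.2 CPM against 58.1 to 131 CPM. Of the 7 basal and myoepithelial markers 2 were higher at that threshold (median log2 FC 0.85), and none of the 7 luminal epithelial markers passed it. The part of these cells in the ratio was not tested.

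In 1% FCS, the comparison of genotypes asks how the lines differ after short starvation. Desmosome genes were higher in Ctsd-/- cells: 7 of the 9 members tested rose (Dsp, Dsg2, Dsc2, Pkp1, Pkp2, Pkp3 and Ppl), Pkp4 fell, and Jup was not called. Over all genes tested 23.5% were called higher and 25.1% lower. The median log2 FC of the members was 1.50, beside 0.00025 over all genes. Without overlap of the groups, 7 members were higher and 1 lower, each a state that 27.6% of all genes showed. In addition, 5 members exceeded a log2 FC of 1 upward, which 10.3% of all genes did. Cell type markers also differed in this comparison. Of the luminal markers tested 6 of 6 were higher in Ctsd-/- cells (median log2 FC 2.89), and of the fibroblast markers tested 4 of 4 were lower (median -6.57). Their part in the difference of the members was not tested.

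The desmosomal cadherin genes lie in a cluster on chromosome 18 of GRCm38, with Dsc3 at 19960930 to 20002351 and Dsc2 at 20030633 to 20059554 on the minus strand and Dsg2 at 20558074 to 20604521 on the plus strand. Dsc2 and Dsg2 changed by the largest factors of all members. Dsc2 stood at 6.36, 3.70 and 3.85 CPM in Ctsd+/+ and at 45.5, 39.0 and 41.1 CPM in Ctsd-/- cells, a 9.04-fold difference (log2 FC 3.18 ± 0.30, SE, adjusted p = 6.1e-06). Dsg2 stood at 18.9, 15.3 and 12.8 CPM against 132, 112 and 111 CPM, a 7.58-fold difference (log2 FC 2.92 ± 0.18, SE, adjusted p = 2.8e-07). For both, every Ctsd-/- library was above every Ctsd+/+ library. Among the plakins, Ppl was 31.8, 22.2 and 28.3 CPM in Ctsd+/+ and 143, 139 and 159 CPM in Ctsd-/- cells (log2 FC 2.42 ± 0.14, SE, adjusted p = 2.5e-07). Dsp was 116, 105 and 102 CPM against 290.2, 297 and 329 CPM (log2 FC 1.50 ± 0.15, SE, adjusted p = 9.0e-06). The spread among the 3 libraries of the 1% FCS Ctsd+/+ group differed between these genes, with a coefficient of variation of 7.01% for Dsp, 17.8% for Ppl, 19.6% for Dsg2 and 32.3% for Dsc2.

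The plaque proteins changed unequally. Pkp3 stood at 34.4, 39.7 and 43.7 CPM in Ctsd+/+ and at 143.5, 186 and 179.5 CPM in Ctsd-/- cells, a 4.32-fold rise (log2 FC 2.11 ± 0.13, SE, adjusted p = 3.1e-07). Pkp1 and Pkp2 rose less, by 0.87 ± 0.22 (SE, adjusted p = 0.0062) and 0.59 ± 0.15 (SE, adjusted p = 0.0077). Pkp4 was lower in Ctsd-/- cells, at 92.3, 102 and 103 CPM against 135, 118 and 122 CPM (log2 FC -0.34 ± 0.086, SE, adjusted p = 0.0070). Its call was lost among the 8 libraries of a single LR code, a code that the labels attach to each sample (log2 FC -0.22, adjusted p = 0.0818). Jup was 446, 491 and 274 CPM in Ctsd+/+ and 500.1, 476 and 492 CPM in Ctsd-/- cells, with overlapping ranges (log2 FC 0.28, 95% interval -0.096 to 0.65, adjusted p = 0.201).

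In 1% FCS LT, after 12 weeks, the called members were divided between both directions. Dsp, Ppl, Pkp3 and Jup were lower in Ctsd-/- than in Ctsd+/+ cells (4 of 9, with 19.1% of all genes called lower), and Dsc2, Pkp2 and Pkp4 were higher (3 of 9, with 20.5% called higher). Dsg2 and Pkp1 were not called. The groups did not overlap for 4 members that were higher and 4 that were lower, against 27.9% and 26.4% of all genes. The median log2 FC of the members was -0.24, beside 0.014 over all genes.

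Dsp showed the largest difference. It stood at 587, 702 and 507 CPM in Ctsd+/+ and at 138, 161 and 194 CPM in Ctsd-/- cells, so that the lowest Ctsd+/+ library was above the highest Ctsd-/- library. The log2 FC was -1.86 ± 0.15 (SE, adjusted p = 3.5e-06). Ppl was 354, 344 and 289 CPM against 203, 174 and 177 CPM (log2 FC -0.83 ± 0.14, SE, adjusted p = 0.00053). Pkp3 was 199, 190.2 and 161 CPM against 130.1, 136 and 135 CPM (log2 FC -0.45 ± 0.13, SE, adjusted p = 0.013), a call that was lost without 1% FCS LT Ctsd+/+ replicate 1 (adjusted p = 0.0562). Jup was almost equal within the Ctsd+/+ group, at 570.5, 571 and 565 CPM, and stood at 418, 375 and 413 CPM in Ctsd-/- cells (log2 FC -0.50 ± 0.17, SE, adjusted p = 0.035). The ranges of Ppl, Pkp3 and Jup did not overlap between genotypes. The Jup call was lost in 7 of 12 fits without a single library (log2 FC -0.45 to -0.53, adjusted p up to 0.115) and the Pkp2 call in 8 of 12 (log2 FC 0.38 to 0.47, adjusted p up to 0.120). Both calls were also lost among the libraries of a single LR code, with log2 FC -0.53 for Jup (adjusted p = 0.115) and 0.38 for Pkp2 (adjusted p = 0.0809). Without 1% FCS LT Ctsd+/+ replicate 1 only 2 members were called lower.

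The cadherins pointed the other way. Dsc2 was 9.65, 7.91 and 4.11 CPM in Ctsd+/+ and 17.7, 18.6 and 15.6 CPM in Ctsd-/- cells (log2 FC 1.26 ± 0.28, SE, adjusted p = 0.0036). Dsg2 was 49.6, 48.9 and 43.1 CPM against 50.9, 58.5 and 75.5 CPM, groups that did not overlap but did not pass the test (log2 FC 0.38, 95% interval 0.025 to 0.75, adjusted p = 0.0845). Dsg2 was called with the LR code as covariate (log2 FC 0.37, adjusted p = 0.0489) and without 1% FCS LT Ctsd-/- replicate 1 (0.51, adjusted p = 0.0386). Pkp4 (log2 FC 0.32 ± 0.086, SE, adjusted p = 0.012) and Pkp2 (0.43 ± 0.15, SE, adjusted p = 0.043) were also higher in Ctsd-/- cells. Pkp1 overlapped between genotypes, with a log2 FC of -0.24 and a 95% interval from -0.71 to 0.24.

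Time in low serum was then compared within each line. In Ctsd+/+ cells, 6 of 9 members rose from 1% FCS to 1% FCS LT (Dsp, Dsg2, Pkp1, Pkp3, Jup and Ppl), where 23.0% of all genes were called higher, and Pkp4 fell, where 23.4% were called lower. The same 7 members were those whose groups did not overlap, against 27.3% of all genes higher and 26.3% lower. Cell type markers moved in the same comparison: 6 of 6 luminal markers tested were higher (median log2 FC 2.05), 3 of 4 fibroblast markers and 7 of 10 mesenchymal genes were lower, and Vim went from a mean of 3066 to 3.70 CPM. Their part in the rise of the members was not tested. Ppl rose 12.0-fold (log2 FC 3.58 ± 0.15, SE, adjusted p = 5.8e-08), Dsp 5.56-fold (2.48 ± 0.15, SE, adjusted p = 3.7e-07) and Pkp3 4.67-fold (2.22 ± 0.13, SE, adjusted p = 2.9e-07). Dsg2 rose 3.02-fold and Pkp1 2.55-fold, with adjusted p of 1.9e-05 and 0.00040. Jup rose 1.41-fold (0.49 ± 0.17 on the log2 scale, SE; adjusted p = 0.032), a call that was lost among the libraries of a single LR code (log2 FC 0.58, adjusted p = 0.0795), when only these 2 groups were fitted (0.49, adjusted p = 0.112) and without any 1 of the 3 libraries of 1% FCS LT Ctsd+/+ (0.49 to 0.50, adjusted p up to 0.0714). Dsc2 (log2 FC 0.64, adjusted p = 0.0834) overlapped between the times. Among the libraries of a single LR code its log2 FC was 1.22 (adjusted p = 0.00050). Pkp4 fell by 0.40 ± 0.086 (SE, adjusted p = 0.0026), and Pkp2, with a log2 FC of -0.39, was called lower by DESeq2 (adjusted p = 0.0441) and not by edgeR (adjusted p = 0.0584).

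In Ctsd-/- cells fewer members were called over the same interval, and those called were lower. Far fewer of all genes were called as well, so the counts of calls in both lines are not on one footing. An uncorrected edgeR p under 0.05 was reached by 7 of 9 members in Ctsd-/- cells and by 9 of 9 in Ctsd+/+ cells. Dsc2, Dsg2 and Dsp fell (3 of 9, where 0.81% of all genes were called lower), and no member rose, where 1.57% were called higher. DESeq2 and limma-voom also called none higher, and Pkp4 and Ppl had uncorrected edgeR p under 0.05 in that direction. The log2 FC was -1.27 ± 0.27 (SE, adjusted p = 0.035) for Dsc2, -0.94 ± 0.17 (SE, adjusted p = 0.017) for Dsg2 and -0.89 ± 0.15 (SE, adjusted p = 0.013) for Dsp. Ranges were apart between the times for 6 members that were lower and 2 that were higher, against 11.9% and 13.5% of all genes, and these 3 were among the 6. The calls depended on which libraries were fitted, while the values moved little. There were 0 members called without 1% FCS Ctsd-/- replicate 2, 1% FCS Ctsd-/- replicate 3 or 1% FCS LT Ctsd-/- replicate 2, and 1 without 1% FCS LT Ctsd-/- replicate 1. In the first 3 of these fits the log2 FC was -0.84 to -0.91 for Dsp, -0.905 to -0.99 for Dsg2 and -1.29 to -1.33 for Dsc2, with adjusted p from 0.0541 to 0.118. Among the libraries of a single LR code 5 members were called lower, Pkp2 (log2 FC -0.68, adjusted p = 0.0418) and Pkp3 (-0.45, adjusted p = 0.0415) in addition. Ppl (log2 FC 0.33, adjusted p = 0.229) and Pkp1 (0.25, adjusted p = 0.595) did not pass the test.

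**Figure D3:**
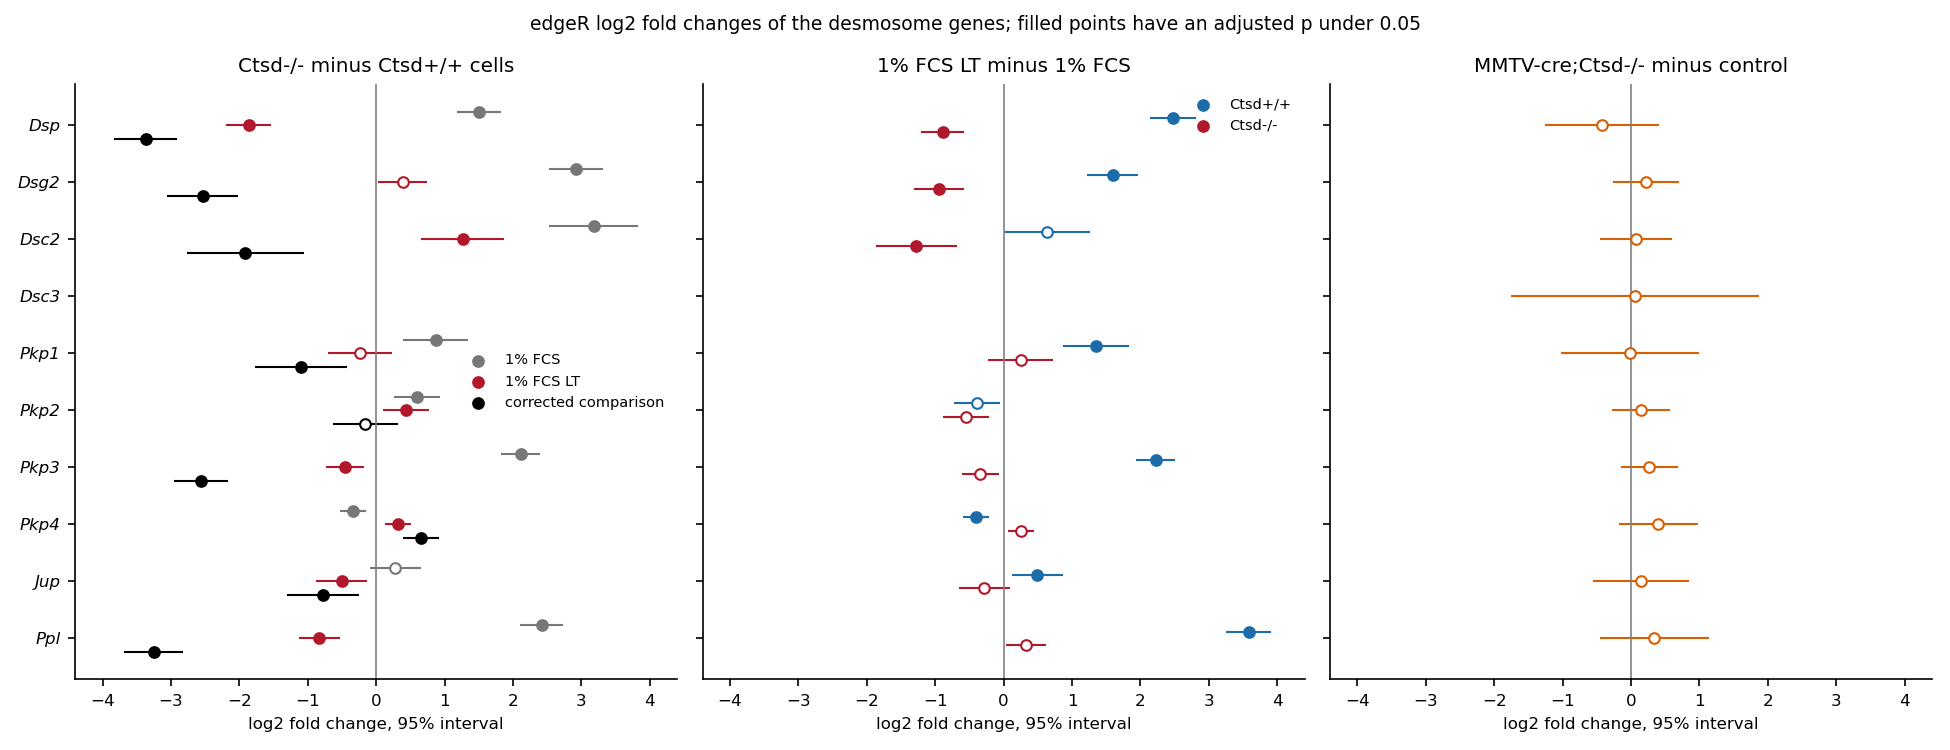
edgeR log2 fold changes (x axis) with 95% intervals for each desmosome gene (y axis), between genotypes in cells (left), between times in cells (middle) and between tumor groups (right); filled points have an adjusted p under 0.05, and Dsc3 was tested in tumors only. In the corrected comparison 7 genes lie below 0 with filled points and Pkp4 lies above 0, whereas all 10 tumor points are open.

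The corrected comparison is the interaction: the genotype difference in 1% FCS LT after subtraction of that in 1% FCS. It asks whether the lines responded unequally to long starvation. Of 9 members, 7 were lower (Dsp, Ppl, Pkp3, Dsg2, Dsc2, Pkp1 and Jup), where 14.1% of all genes were called lower, and Pkp4 was higher, where 16.1% were called higher. With an absolute log2 FC above 1 in addition, 6 members were lower, where 8.12% of all genes were. The median log2 FC of the members was -1.91, beside -0.0035 over all genes.

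The plakins had the largest values. The log2 FC was -3.37 ± 0.21 (SE, adjusted p = 1.5e-06) for Dsp and -3.25 ± 0.20 (SE, adjusted p = 1.3e-06) for Ppl. They came about differently, since Dsp fell with time in Ctsd-/- cells while rising in Ctsd+/+ cells, whereas Ppl rose in Ctsd+/+ cells and was not called in Ctsd-/- cells. Pkp3 (-2.56 ± 0.18, SE, adjusted p = 2.8e-06) and Dsg2 (-2.54 ± 0.24, SE, adjusted p = 2.0e-05) followed, then Dsc2 (-1.91 ± 0.39, SE, adjusted p = 0.0034) and Pkp1 (-1.10 ± 0.31, SE, adjusted p = 0.018). Pkp2, with a log2 FC of -0.16 and a 95% interval from -0.64 to 0.32, did not pass the test (adjusted p = 0.619). Pkp4 was higher by 0.65 ± 0.12 (SE, adjusted p = 0.0020). Jup had the smallest value of the 7 lower members, -0.78 ± 0.24 (SE, adjusted p = 0.030). Its call was lost in 8 of the 12 fits without a single library, where the log2 FC was -0.73 to -0.81 and the adjusted p up to 0.0732, and among the libraries of a single LR code (log2 FC -0.87, adjusted p = 0.0880). The calls of the other 7 members held in every fit that left out a single library and under all 9 other settings. The 4 cell comparisons share their libraries with this contrast, so it is no separate evidence. The higher mesenchymal levels of the 1% FCS Ctsd+/+ libraries enter it as the baseline, and their part in these values was not tested.

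The ratios within a library put the plakins beside other members. Per kb, Dsp stood at 0.183 of Jup in 1% FCS Ctsd+/+ cells, 0.415 in 1% FCS Ctsd-/-, 0.695 in 1% FCS LT Ctsd+/+ and 0.270 in 1% FCS LT Ctsd-/- cells. Ppl was below Dsp in every other cell library and above it in all 3 libraries of 1% FCS LT Ctsd-/- cells, where the log2 ratio was 1.05, 0.60 and 0.35. Taken back from the mean log2 ratio, Ppl stood at 1.585 of Dsp in those cells, against 0.354 to 0.773 in the other 3 cell groups. The cadherins were also unequal, with Dsc2 at 0.226 to 0.555 of Dsg2 in the 4 cell groups and at 1.35 (control) and 1.18 (MMTV-cre;Ctsd-/-) in tumors. With 3 libraries a group an exact permutation test cannot go below 0.10, so these ratios were not tested in cells.

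**Figure D4:**
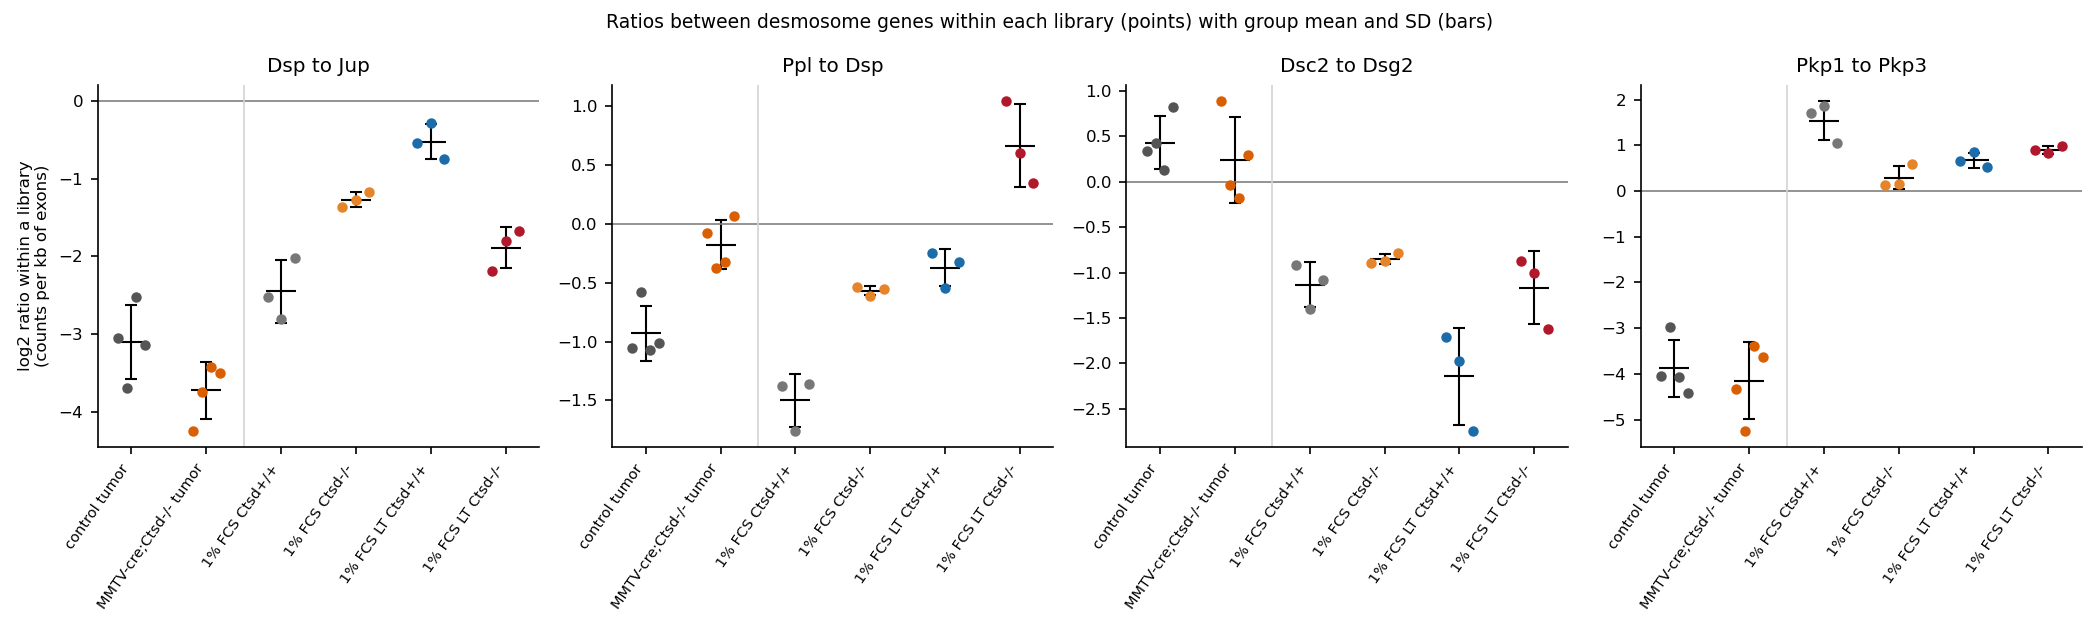
Log2 ratio of the counts per kb of exons (y axis) of Dsp to Jup, Ppl to Dsp, Dsc2 to Dsg2 and Pkp1 to Pkp3 within each of the 20 libraries (points), with the mean and SD of each group (black bars). The ratio of Ppl to Dsp is above 0 in all 3 libraries of 1% FCS LT Ctsd-/- cells and below 0 in the other 9 cell libraries.

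The order of the 4 cell groups differed between members. For Dsp it ran from 1% FCS Ctsd+/+ over 1% FCS LT Ctsd-/- and 1% FCS Ctsd-/- to 1% FCS LT Ctsd+/+, and no neighbouring ranges overlapped. Ppl, Pkp3 and Pkp1 began and ended with the same groups as Dsp, but for Pkp3 and Pkp1 the highest group overlapped with the group below it. Dsg2 and Dsc2 were lowest in 1% FCS Ctsd+/+ and highest in 1% FCS Ctsd-/- cells, with an overlap only between the Dsc2 ranges of both Ctsd+/+ groups. Pkp4 ran against Dsp: it was lowest in 1% FCS LT Ctsd+/+ and highest in 1% FCS Ctsd+/+ cells, and its lower and its upper pair of groups each overlapped.

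The genes most like Dsp were ranked by the root mean square difference of log2 CPM, centred over the 12 cell libraries, among 11517 other genes with an average log2 CPM above 1.3. Esrp1, an epithelial splicing factor, came first with 0.25, and Mdfi (0.30), Tmc4 (0.33) and Tmem54 (0.33) were also among the 5 nearest. Among the members Pkp3 (0.58, rank 156) and Pkp1 (0.66, rank 310) came nearest, then Jup (0.75, rank 755) and Ppl (0.79, rank 1094). Dsg2 was at rank 4920, Pkp2 at 7466, Pkp4 at 7715 and Dsc2 at 10080. The measure takes in the size of a change as well as its shape, over libraries that share lines and times. No member was among the 5 genes nearest to Dsp.

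Other junction and filament genes were counted from lists. Among 15 adherens junction genes, the 1% FCS comparison called 7 higher and 3 lower in Ctsd-/- cells, against 23.5% and 25.1% of all genes. The corrected comparison called 3 higher and 4 lower (median log2 FC -0.18), against 16.1% and 14.1% of all genes. Cdh1, the gene of E-cadherin, fell in the corrected comparison by 2.89 ± 0.19 (SE, adjusted p = 2.1e-06), with group means of 267 CPM in 1% FCS Ctsd+/+, 954 in 1% FCS Ctsd-/-, 913 in 1% FCS LT Ctsd+/+ and 439 in 1% FCS LT Ctsd-/- cells. For Nectin4, another adhesion gene, the value was -3.06 ± 0.31 (SE, adjusted p = 3.2e-05). Of 8 keratin genes tested, 7 were higher in Ctsd-/- cells in 1% FCS, against 23.5% of all genes. In the corrected comparison 5 were lower (median -2.25), against 14.1% of all genes. Krt7 had a value of -3.35 ± 0.59 there (SE, adjusted p = 0.0013) and Krt19 one of -3.29 ± 0.38 (SE, adjusted p = 7.6e-05). In 1% FCS LT, 2 of these 8 were higher and 1 was lower in Ctsd-/- cells, against 20.5% and 19.1% of all genes. None of these lists had a called gene in the tumors.

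Regulators and mesenchymal genes were counted in the same comparisons. Over all genes, 23.5% were called higher and 25.1% lower in 1% FCS, and 20.5% and 19.1% in 1% FCS LT. In the corrected comparison the shares were 16.1% and 14.1%. Of 12 epithelial transcription and splicing factors, 8 were higher in Ctsd-/- cells in 1% FCS, 8 were lower in 1% FCS LT, and 9 were lower in the corrected comparison (median log2 FC -2.67). Elf3 and Ehf, both epithelial ETS factors, had values of -4.06 ± 0.43 (SE, adjusted p = 4.2e-05) and -3.74 ± 0.39 (SE, adjusted p = 3.9e-05) there. Of 7 EMT transcription factors, 6 were lower in Ctsd-/- cells in 1% FCS, 3 were higher and 2 lower in 1% FCS LT, and 6 were higher in the corrected comparison. Zeb1, a repressor of epithelial genes, stood at 62.6, 101 and 77.5 CPM in 1% FCS Ctsd+/+ cells, at 0.548 to 0.998 CPM in 1% FCS Ctsd-/-, at 1.76 to 1.85 CPM in 1% FCS LT Ctsd+/+ and at 23.1, 15.9 and 3.15 CPM in 1% FCS LT Ctsd-/- cells. Prrx1 was at 28.2 to 83.1 CPM in 1% FCS Ctsd+/+ cells and at most 0.2535 CPM in the other cell libraries. Of 10 mesenchymal genes, 9 were lower in Ctsd-/- cells in 1% FCS and 5 were higher in the corrected comparison. In 1% FCS LT, 2 were higher and 2 lower (median log2 FC -0.29), near the shares over all genes. Pdgfrb stood at 160 to 694 CPM in 1% FCS Ctsd+/+ cells, at most 0.684 CPM in the groups 1% FCS Ctsd-/- and 1% FCS LT Ctsd+/+, and at 0.968 to 84.9 CPM in 1% FCS LT Ctsd-/- cells. Mgp ranged from 1.23 to 70.6 CPM in 1% FCS Ctsd+/+ cells and had no read in 1% FCS Ctsd-/- cells. Whether the desmosome values and these genes share a source was not tested.

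**Figure D5:**
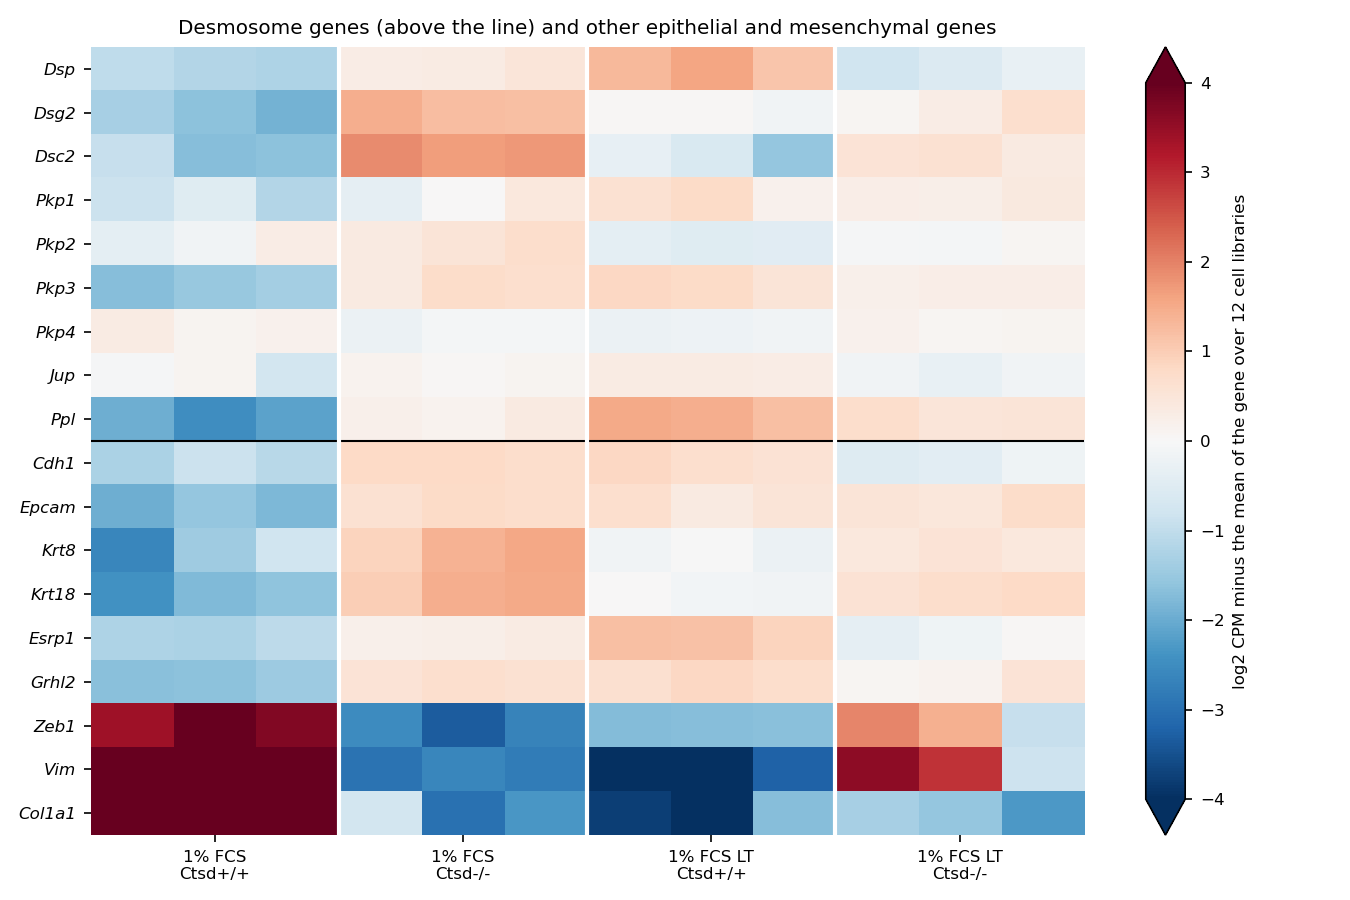
Log2 CPM of 9 desmosome genes (above the line) and of 9 epithelial and mesenchymal genes, minus the mean of each gene over the 12 cell libraries (color, from -4 to 4), with 1 column per library grouped as labelled. Dsp, Dsg2, Dsc2, Pkp3 and Ppl are below their mean in all 3 libraries of 1% FCS Ctsd+/+ cells, where Zeb1, Vim and Col1a1 are far above theirs.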

How the data were processed

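RNA of 8 tumors and 12 cell samples was sequenced by the study as total RNA on an Illumina HiSeq4000. Trimming used Trimmomatic and mapping to GRCm38 (mm10) used STAR, whose unnormalized counts of reads per gene the authors deposited in 3 columns (either strand, same strand, opposite strand). The tools' versions and the annotation release are not given in the sources used here. Counts regardless of strand were used for tumors (52.8% to 53.7% of strand-assigned counts on the opposite strand) and opposite-strand counts for cells (97.1% to 97.3%). Symbols, positions and exon lengths came from GENCODE M21, which held 45143 of 45706 identifiers.

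In R 4.3.3, edgeR 4.0.16 scaled libraries with TMM, removed low genes with filterByExpr (18617 genes stayed in tumors, 15178 in cells) and fitted the quasi-likelihood test per material, with all 12 cell libraries together and Benjamini-Hochberg adjustment over all genes tested. Unless another test is named, p-values are from it. Intervals use its degrees of freedom. edgeR estimated a biological variation (BCV) of 0.429 for tumors and 0.217 for cells. Fold changes against a group at 0 are not given as bounds. A count of 0 allows up to 3 counts, for counting error only. Ratios add 0.5 counts. Alternatives were DESeq2 1.42.0, limma-voom (limma 3.58.1), DESeq2 size factors, no filter, at least 10 counts in every sample, each library left out, the replicate number as block, other strand forms, marker covariates (tumors), LR codes and the fit of only the groups compared (cells). The steps were tested on simulated data. The members, lists and tests were chosen with earlier results of these data known. The study calls the cell replicates independent experiments; with 1 line per genotype, their p-values measure the spread between cultures of that line.

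Named genes are the 10 members, Ctsd, up to 2 genes of each list with the largest absolute log2 FC in the corrected comparison (adjusted p under 0.05, average log2 CPM above 1.3) and the 5 genes nearest to Dsp, of which 1 is not reported here. Vim, Lum, Col1a1, Col1a2, Evpl, Perp and the skin markers were named after their values were seen. Eppk1 of the plakin list was not matched.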

Additional observations from a re-analysis of the deposited data

Results flagged for a closer look

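In the 20 tumor groups of 4 values examined (10 genes in each tumor group), 1 sample stood far from the others of its group: Dsg2 in MMTV-cre;Ctsd-/- tumor 2, at 75.0 CPM, where the other 3 tumors lay between 53.4 and 56.9 CPM. Chance alone gives such a value in about 1 group in 20.

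The genotype difference depended on the time in low serum for 8 members, by the interaction test of edgeR. The log2 FC in 1% FCS LT minus that in 1% FCS was -3.37 for Dsp, -3.25 for Ppl, -2.56 for Pkp3, -2.54 for Dsg2, -1.91 for Dsc2, -1.10 for Pkp1, -0.78 for Jup and 0.65 for Pkp4. The genotype difference itself changed sign between the times for Dsp (1.50 and -1.86), Ppl (2.42 and -0.83), Pkp3 (2.11 and -0.45) and Pkp4 (-0.34 and 0.32), and each of these values passed the test. For Dsc2 it kept its sign and was smaller after 12 weeks (3.18 and 1.26).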

How the results depend on the processing

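In the corrected comparison, 7 members lower and 1 higher were called in edgeR, and every alternative gave 6 or 7 lower and 1 higher. In tumors no setting called a member at an adjusted p of 0.05. At an uncorrected p under 0.1, 1 member was lower with the adipocyte markers as covariate, and fits without a single tumor gave 0 to 2 higher and 0 to 1 lower. Log2 FC that changed sign in tumors were all close to 0 or uncertain: Dsc2, -0.15 without the 2 tumors with skeletal muscle markers (an alternative chosen after seeing the data); Dsc3, -0.053 with the replicate block and -0.29 with the adipocyte covariate; Pkp1, 0.022 with the block. Without single tumors, Dsc2 ranged from -0.12 to 0.21, Dsc3 from -0.81 to 0.87, Pkp1 from -0.34 to 0.47 and Jup from -0.063 to 0.37. In cells, the libraries of a single LR code gave 0 members lower in 1% FCS Ctsd-/- against Ctsd+/+ cells, 5 lower with time in Ctsd-/- cells and 2 lower with time in Ctsd+/+ cells, and the LR code as covariate gave 5 and 2. DESeq2 and the replicate block each gave 2 members lower with time in Ctsd+/+ cells. Leaving out single libraries gave 2 to 4 members lower in 1% FCS LT Ctsd-/- against Ctsd+/+ cells, 0 to 4 lower with time in Ctsd-/- cells and 1 to 2 lower with time in Ctsd+/+ cells. The causes were not tested. Replicate numbers were not taken to pair the samples, since no comparison had every same-numbered correlation of deviations above 0.1. These were 0.362, 0.09997 and 0.299 between genotypes in 1% FCS (mean of other pairs -0.126), where replicate 1 of both genotypes shares an LR code, 0.0018 to 0.119 in 1% FCS LT, 0.0766 to 0.192 over time in Ctsd-/- cells (others -0.0734), and negative over time in Ctsd+/+ cells and in tumors. The replicate block changed 2 calls, Dsc2 (log2 FC 0.62, adjusted p = 0.0491) and Pkp2 (-0.36, adjusted p = 0.0419) with time in Ctsd+/+ cells. Over all genes, the settings other than leaving out libraries called 0 to 204 genes higher and 0 to 61 lower in tumors (1 and 0 in the main setting) and 156 to 719 higher and 94 to 479 lower with time in Ctsd-/- cells (238 and 123). With 4 tumors a group, tumor changes within the intervals given could not be told from 0.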

Other observations

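Other desmosome and plakin genes were mostly low or divided. Of 13 genes of this list found in the count tables, 7 passed the filter in cells. In the corrected comparison 3 were lower and 2 higher (median log2 FC -0.48), against 14.1% and 16.1% of all genes. Evpl, the gene of envoplakin, the partner of periplakin in the cornified envelope, was lower by 3.54 ± 0.37 (SE, adjusted p = 4.0e-05), with group means of 8.88 CPM in 1% FCS Ctsd+/+, 41.3 in 1% FCS Ctsd-/-, 91.3 in 1% FCS LT Ctsd+/+ and 36.6 in 1% FCS LT Ctsd-/- cells. Dsg3, a desmoglein of stratified epithelia, stood at 16.3 to 17.9 CPM in 1% FCS LT Ctsd+/+ cells and at no more than 2.90 CPM in the other cell libraries (corrected comparison -3.93 ± 0.74, SE, adjusted p = 0.0020). Cdsn, the gene of corneodesmosin, had the opposite value, 5.11 ± 1.07 (SE, adjusted p = 0.0038). Its levels were 1.83 to 22.8 CPM in 1% FCS Ctsd+/+, 3.01 to 3.67 in 1% FCS Ctsd-/-, 0.127 to 0.639 in 1% FCS LT Ctsd+/+ and 4.02 to 5.05 CPM in 1% FCS LT Ctsd-/- cells, and its call was lost with counts regardless of strand (log2 FC 1.68, adjusted p = 0.0859). Cdsn ranged from 0.381 to 3.77 CPM in control tumors and from 4.37 to 65.0 CPM in MMTV-cre;Ctsd-/- tumors, without overlap (log2 FC 4.05 ± 0.98, SE, adjusted p = 0.369). Perp, which encodes a desmosomal membrane protein, ranged from 67.3 to 163 CPM in control and from 43.1 to 74.8 CPM in MMTV-cre;Ctsd-/- tumors (log2 FC -0.93 ± 0.30, SE, adjusted p = 0.489). Neither tumor difference passed the correction. The 7 skin keratinocyte markers summed to 10.2 to 25.25 CPM in 1% FCS LT Ctsd+/+ cells and to 3.09 to 8.345 CPM in the other cell libraries. Sbsn stood at 6.81 to 21.5 CPM in 1% FCS LT Ctsd+/+ and at 0.759 to 3.99 CPM in the other cells, Lor at 0.458 to 2.66 CPM and Krt10 at 0.963 to 2.38 CPM over all cells. Of the others, Flg2 and Krt2 were at 0 in all 12 cell libraries, and Krt1 and Krt77 in every library outside 1% FCS LT Ctsd+/+, where they reached 0.0507 and 0.0266 CPM.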
